A study of Homo sapiens with 6 samples.

Results

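Binding of N-Myc and of JMJD6 to chromatin was mapped by ChIP-seq, the sequencing of DNA recovered by immunoprecipitation, in the established human neuroblastoma line CHP-134, with 3 samples for each protein. N-Myc, the product of MYCN, is a transcription factor, and JMJD6 is a jumonji domain protein that acts on histones and other proteins. The study describes this line as having the MYCN gene amplified and the JMJD6 gene gained. The genes examined here were 10 genes of MHC class I antigen presentation, namely HLA-B, HLA-C, HLA-E, HLA-F, HLA-G, HLA-L, B2M, TAP1, PSMB8 and PSMB9. They were chosen by name from the lists of bound promoters, enhancers and super-enhancers with those lists already known, so the counts of bound members below describe the choice and were not tested. Of the 10 genes, 9 were named in at least 1 of these lists, among 4229 genes with a listed promoter for either protein. All cells came from 1 line, with no treatment named other than fixation, and nothing in the labels says that the 3 samples of a protein were separate cultures. For JMJD6 the cells were fixed with DSG and then formaldehyde, and for N-Myc with formaldehyde alone, so protein and fixation cannot be told apart.

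MHC class I molecules display peptides from inside the cell to CD8+ T cells. The immunoproteasome, which contains PSMB8 and PSMB9, cuts cytosolic proteins into peptides, the TAP transporter, of which TAP1 is 1 subunit, carries them into the endoplasmic reticulum, and the peptide is loaded onto an HLA heavy chain paired with beta-2-microglobulin, the product of B2M. The promoters of these genes are known to respond to interferon through sites bound by interferon regulatory factors, to NF-kappa-B through an element called enhancer A, and to NLRC5 with RFX, CREB-type and NF-Y factors through a composite SXY module. Neuroblastoma cells with amplified MYCN are known for low surface class I.

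Promoter stretches of the HLA members, with the pseudogene HLA-L and the unlisted HLA-G included, are shown to mark the elements counted below where present. Each runs 5′ to 3′ along the gene in GRCh37 and is 150 bases that end inside the conserved CCAAT box of class I promoters, and HLA-B and HLA-F are shortened at the 3′ end because some annotated transcripts begin further upstream. Capitals mark matches on either strand to 4 patterns. These are GAAA and GAAA separated by any 2 bases (the interferon pair), GAA and GAAA separated by any 2 bases (its variant, seen as its reverse complement in HLA-B and HLA-C), TGACG followed by ATTGG after 10 to 30 bases (called the class I pair here, with only its ends in capitals, and chosen after CGTCA followed by ATTGG had given no match in the peaks), and GGGA and CC separated by any 4 bases (the kappa-B form, which overlaps itself on the opposite strand in HLA-B).
HLA-B, minus strand of chr6:31325041-31325155: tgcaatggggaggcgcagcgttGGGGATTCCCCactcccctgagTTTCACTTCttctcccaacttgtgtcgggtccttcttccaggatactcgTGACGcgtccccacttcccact
HLA-C, minus strand of chr6:31239919-31240068: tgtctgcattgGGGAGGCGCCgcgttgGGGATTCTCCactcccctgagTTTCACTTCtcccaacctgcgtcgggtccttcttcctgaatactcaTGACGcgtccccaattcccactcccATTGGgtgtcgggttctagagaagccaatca
HLA-E, plus strand of chr6:30457086-30457235: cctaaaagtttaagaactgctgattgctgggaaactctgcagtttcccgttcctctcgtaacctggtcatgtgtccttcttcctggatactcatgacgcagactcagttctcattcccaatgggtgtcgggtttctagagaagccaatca
HLA-F, plus strand of chr6:29691011-29691112: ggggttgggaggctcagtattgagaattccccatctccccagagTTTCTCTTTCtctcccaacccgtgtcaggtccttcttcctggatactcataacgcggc
HLA-L, plus strand of chr6:30227167-30227316: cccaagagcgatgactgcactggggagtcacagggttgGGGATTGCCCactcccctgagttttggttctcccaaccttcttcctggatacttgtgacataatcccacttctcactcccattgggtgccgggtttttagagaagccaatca
HLA-G, plus strand of chr6:29795403-29795552: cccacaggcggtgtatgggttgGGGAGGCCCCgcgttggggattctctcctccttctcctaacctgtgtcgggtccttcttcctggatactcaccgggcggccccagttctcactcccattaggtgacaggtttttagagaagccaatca

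HLA-B and HLA-C, the heavy chains of classical class I molecules, had the most alike stretches of the 15 pairs, with 87.0% identity over the 150 bases after alignment. The other pairs reached down to 64.9%, and the median pair was 69.1% identical. In HLA-B the partner ATTGG of the TGACG lies in the bases left out. HLA-G, which has no listed promoter, kept a kappa-B form but had neither the interferon pair, its variant nor the class I pair in this stretch. HLA-E and the stretch shown of HLA-F had no class I pair, and HLA-E had no match to any of the 4 patterns.

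B2M lies on another chromosome, and its promoter is shown because 3 of the 4 patterns stood within its 160 bases upstream of the centre of the listed promoter. TAP1 is shown only as the 30 bases around its interferon pair, which stand just upstream of the annotated TAP1 start at position 32821593, with the complement of 2 overlapping matches in capitals.
B2M, plus strand of chr15:45003524-45003683: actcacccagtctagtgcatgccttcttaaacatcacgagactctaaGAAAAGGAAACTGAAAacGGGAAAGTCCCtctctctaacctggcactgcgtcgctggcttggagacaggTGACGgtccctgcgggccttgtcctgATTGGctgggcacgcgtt
TAP1, minus strand of chr6:32821593-32821622: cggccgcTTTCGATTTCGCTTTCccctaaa

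JMJD6 was listed at the promoters of 9 of the 10 genes (90%), and N-Myc at none of them (0 of 10). A listed promoter is the region 1 kb on each side of a RefSeq start site that held a peak called in all 3 samples of the protein. Across the annotation, 157 of 20136 protein-coding genes (0.780%) had a JMJD6 peak within 1 kb of a start site and 4195 (20.8%) had an N-Myc peak there. Of the 177 promoters listed for JMJD6, 84 (47.5%) were also listed for N-Myc, against 0 of the 10 promoters of these genes. Because the genes were selected with this pattern in view, nothing is read from the size of these gaps. No member was named beside an enhancer or super-enhancer of either protein, and the share of all genes so named was not computed. No interval is given for these counts, because the genes were picked by name from the same lists and not drawn at random. The lists give no height, count or spread between samples, so the depth of a peak is unknown. A peak missing from 1 sample of 3 would also be missing here.

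**Figure D1:**
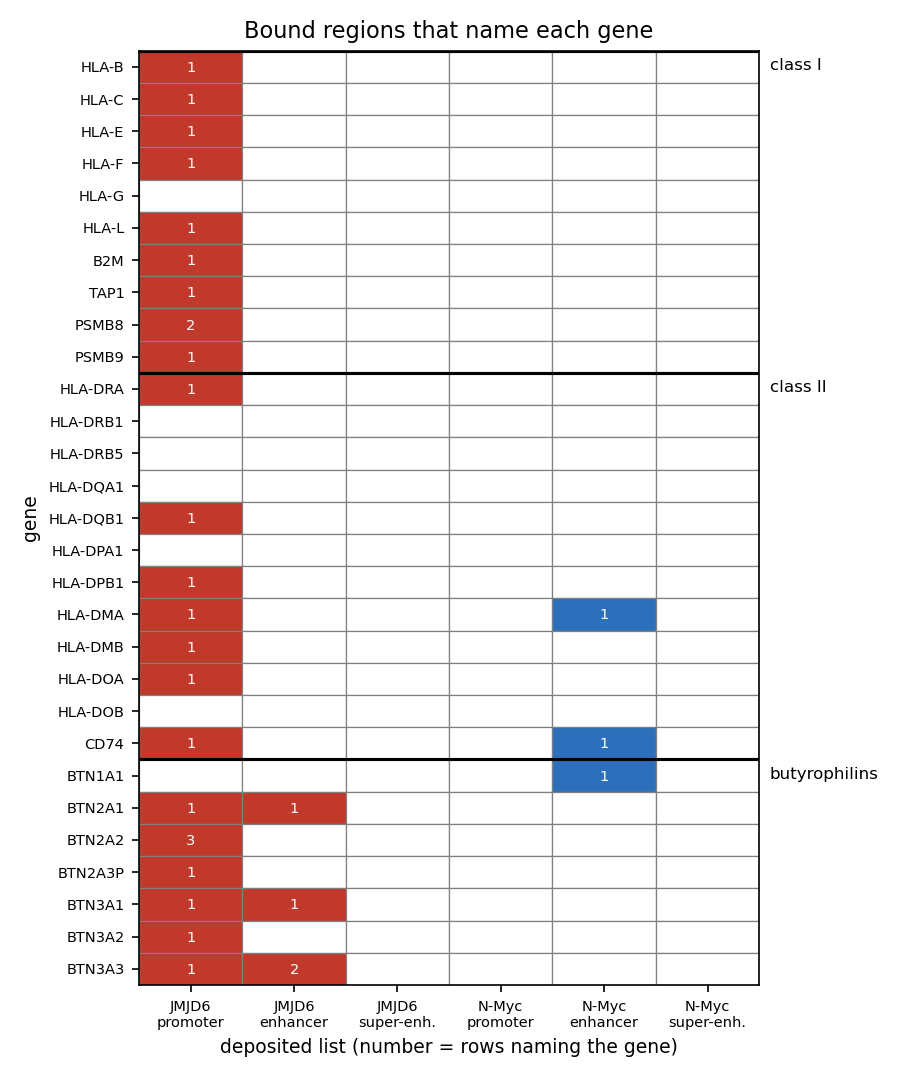
Deposited lists (columns) that named each gene (rows) for JMJD6 (red) and N-Myc (blue), where the number in a cell counts the rows naming the gene and an empty cell means none. Of the 10 class I presentation genes, 9 were named for JMJD6 promoters and none in any other list, and 7 of 12 class II genes and 6 of 7 butyrophilin genes were also named for JMJD6 promoters.

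The 10 listed promoters (PSMB8 has 2) held 8 distinct JMJD6 peaks, 0 of which overlapped an N-Myc peak. Of all 124 JMJD6 peaks at listed promoters, 47 (37.9%) did. All 241 JMJD6 peaks that overlapped an N-Myc peak anywhere had the same start and end as that N-Myc peak. The sources do not say how these shared intervals were formed. The median width of the 241 peaks was 574 bp, against 393.5 bp for the 320 JMJD6 peaks with no overlap. The 8 peaks at the members belong to the second kind. Their gaps, composition and whole-peak patterns are set beside peaks of that kind below. Peak positions and shares in promoter windows are set beside JMJD6-listed promoters of both kinds.

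The classical heavy chains HLA-B and HLA-C had the narrowest peaks. The HLA-B peak at chr6:31324917-31325208 was 292 bp wide and covered the centre of the listed promoter, with its own centre at -41 bp along transcription. The HLA-C peak at chr6:31239825-31240061 was 237 bp wide and was centred at -30.5 bp. Both held the variant interferon pair, the class I pair and the kappa-B form, and only HLA-B held the uninterrupted enhancer A form, in which the kappa-B form reads GGGATT followed by 4 C bases. Neither peak held CACGTG, the E-box bound by Myc with Max. Annotated exons, counted over all genes, covered the whole HLA-B peak and 54.0% of the HLA-C peak. Each of these peaks, like that of HLA-F, was also overlapped by another annotated gene without a symbol.

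HLA-E, the non-classical heavy chain recognised by NKG2A on natural killer cells, had a peak of 429 bp at chr6:30456893-30457321 centred at -74.5 bp. Annotated exons covered 8.39% of it, and it held none of the 4 patterns. HLA-F, a non-classical heavy chain that is bound by natural killer cell receptors, had a peak of 357 bp at chr6:29690970-29691326 centred at 32.5 bp, which held 1 interferon pair on the opposite strand at -61 to -52 bp. HLA-F and HLA-E differed from HLA-B and HLA-C in which patterns stood under the peak, while in all 4 the peak covered the promoter centre.

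HLA-G, the heavy chain best known from the placenta, was not listed for either protein. Its start, found by matching the RefSeq promoter sequence to GRCh37, was at position 29795602 of chromosome 6. The nearest JMJD6 peak was that of HLA-F, 104.275 kb away, and the nearest N-Myc peak was 198.778 kb away. A weaker JMJD6 signal at HLA-G that was not called in all 3 samples would not be visible in these lists.

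HLA-L is a class I pseudogene, and its peak also lay within the annotated gene HCG17. Its peak at chr6:30226704-30227486 was the widest of the 8, at 783 bp, and reached furthest upstream of a covered promoter centre, with a centre at -242.5 bp. It held 1 kappa-B form at -133 to -124 bp and none of the other patterns. As a pseudogene HLA-L is not among the coding genes counted above, and its nearest annotated start, at position 30227325, lay within the peak.

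B2M encodes the light chain shared by all class I molecules and lies outside the MHC. Its peak at chr15:45003141-45003892 was 752 bp wide, was centred at -167 bp and covered the promoter centre. The interferon pair matched at -113 to -104 bp and again, overlapping, at -107 to -98 bp, the kappa-B form at -95 to -86 bp and the class I pair at -44 to -14 bp, all in the sequence shown above. The exons of B2M and of the overlapping gene PATL2 covered 68.4% of the peak.

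TAP1 and PSMB9 are transcribed away from each other from neighbouring starts, and 1 peak of 383 bp at chr6:32821520-32821902 served both listed promoters. It covered the TAP1 promoter centre, with its own centre at 36.5 bp, and lay upstream of the PSMB9 centre, at -225.5 bp. The same pair of overlapping interferon matches fell at 133 to 148 bp along TAP1 and at -337 to -322 bp along PSMB9. The list therefore does not show which of the 2 genes the peak belongs to, and the 2 genes are not independent observations.

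PSMB8, the other immunoproteasome subunit of the list, had 2 listed promoters and 1 peak of 716 bp at chr6:32812229-32812944. The peak was centred 125 bp downstream of one promoter centre and at -771 bp from the other, which it did not cover. It was overlapped in addition by the listed promoter of the antisense gene PSMB8-AS1, whose listed region is displaced by 0.046 kb, and it held none of the 4 patterns. ChIP-seq peaks carry no strand, so PSMB8 and PSMB8-AS1 cannot be told apart. The annotation of PSMB9 also reaches into this peak.

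**Figure D2:**
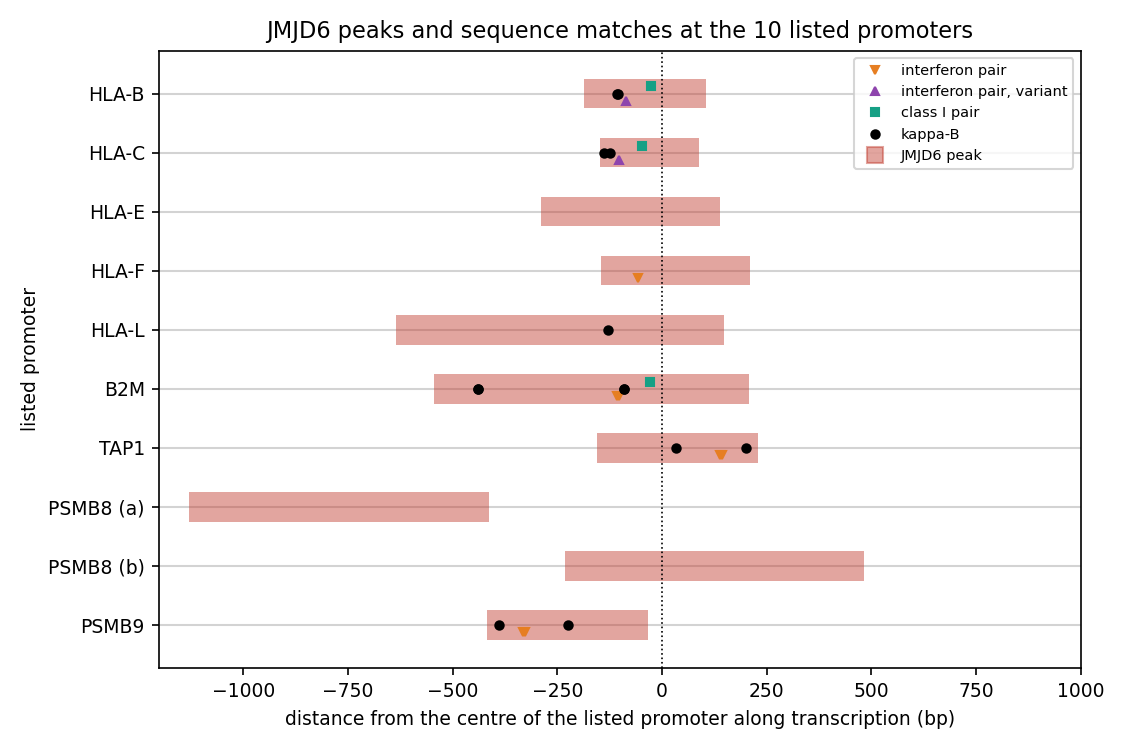
JMJD6 peaks (red bars) at the 10 listed promoters, in bp along transcription from the promoter centre (dotted line), with symbols at the middle of each sequence match within the peak. The peak covers the centre at 8 of the 10 promoters, and the exceptions are 1 of the PSMB8 promoters, marked (a), and PSMB9.

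Over the 10 pairs of promoter and peak, the median position of the peak centre was -57.75 bp, with a range from -771 to 125 bp. The 168 pairs at other JMJD6 promoters, with and without N-Myc, had a median of -111.25 bp. The middle range of the members, from -210.875 to 16.75 bp, lay within that of the others, from -305.5 to 31 bp. Measured from the nearest annotated start in place of the listed centre, the members' median was -124.75 bp.

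The nearest N-Myc peak was between 46.962 kb (B2M) and 269.302 kb (HLA-C) from the 8 peaks. In between were HLA-L at 66.323 kb, HLA-E at 67.499 kb, HLA-F at 94.146 kb, the TAP1 and PSMB9 peak at 114.384 kb, PSMB8 at 123.342 kb and HLA-B at 184.155 kb. The 8 peaks had 6 distinct N-Myc neighbours, since HLA-B and HLA-C had the same one and PSMB8 shared one with the TAP1 and PSMB9 peak. The median gap was 104.265 kb, against 36.2 kb (quartiles 14.6 and 86.0 kb) for the 68 other JMJD6 promoter peaks with no N-Myc overlap. Most of the members are neighbours on 1 chromosome, so their gaps are not independent, and the genes were chosen with their listing known.

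**Figure D3:**
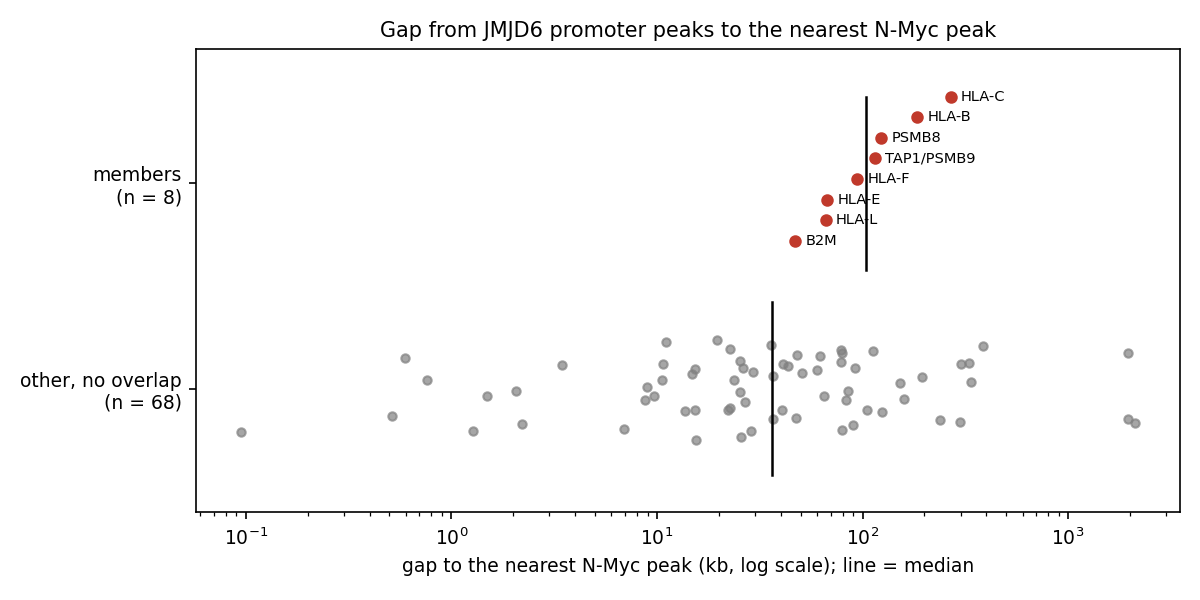
Gap in kb (log scale) from each JMJD6 promoter peak without an overlapping N-Myc peak to the nearest N-Myc peak, for the 8 peaks at the class I presentation genes (red, named) and the 68 others (grey), with the median as a line. All 8 named peaks lie above the other peaks' median of 36.2 kb, and 3 of them lie below the others' upper quartile of 86.0 kb.

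The chromosome 6 members lie in the MHC, where both proteins had many peaks. Between 29 and 33 Mb there were 19 JMJD6 peaks, or 4.75 per Mb, against 0.175 per Mb over the autosomes and chromosome X. N-Myc had 33 peaks there, or 8.25 per Mb against 3.34. The N-Myc peaks were unevenly spread, so this rate is not the rate around each member. By distance from the HLA-B promoter centre, none lay between -0.449 and 0.185 Mb, where HLA-B and HLA-C lie. None lay between 0.888 and 1.61 Mb, with TAP1, PSMB8 and PSMB9, or between -1.73 and -1.29 Mb, with HLA-F and HLA-G. HLA-L and HLA-E were nearer to an N-Myc peak, at 66.3 and 67.5 kb. Between 26 and 34 Mb, 28 promoters of 25 genes were listed for JMJD6 and 0 of them for N-Myc, and 9 of the 28 were promoters of members.

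**Figure D4:**
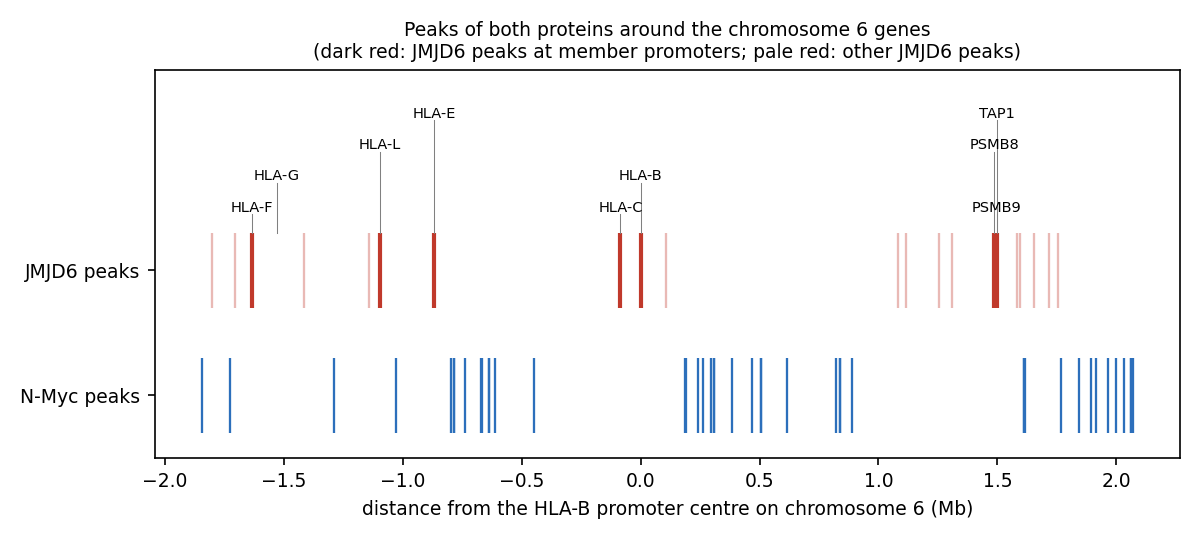
Peaks of JMJD6 (upper row, dark red at member promoters and pale red elsewhere) and N-Myc (lower row, blue) by distance in Mb from the HLA-B promoter centre on chromosome 6, with the members named above. JMJD6 peaks mark every named gene but HLA-G, and no N-Myc peak falls at a named gene.

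Other JMJD6-only promoters near the members, in order of distance but not a complete list, were those of PSMB8-AS1 at 0.046 kb, TRIM26, a ubiquitin ligase gene, at 46.1 kb, the class II genes HLA-DMB at 86.9 kb and HLA-DMA at 99.0 kb, and the noncoding gene HCP5 at 105.9 kb. They were followed by HLA-DOA at 155.5 kb, HLA-DQB1 at 177.4 kb, HLA-DPB1 at 221.8 kb and the pseudogene HLA-DPB2 at 258.4 kb. The likeness is only the listing for JMJD6 without N-Myc and the position on the chromosome.

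In sequence composition the 8 peaks had a median GC content of 59.9% (range 52.0 to 62.0%) and a median ratio of observed to expected CpG of 0.636. The 68 other JMJD6 promoter peaks without N-Myc had 55.5% and 0.595, and the 7 peaks at class II promoters had 48.9% and 0.265. The highest class II peak, at 52.5% GC, was just above the lowest class I presentation peak. The widths overlapped widely, with a median of 406 bp at the members and 528.5 bp at the 68 others. These are descriptions of the chosen peaks.

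CACGTG was in 0 of the 8 peaks (CI up to 36.9%). It was in 4 of the 68 other JMJD6 promoter peaks without N-Myc (5.88%), in 10 of the 46 with N-Myc (21.7%) and in 36.9% of 3549 N-Myc promoter peaks. In the listed promoters of 2 kb it was in 0 of 10 at the members, in 24.7% of 174 for JMJD6 outside the mitochondrial genome and in 48.8% of 5077 for N-Myc. With 8 peaks the interval of the members still includes the shares of every JMJD6 group and, at its upper end, that of the N-Myc promoter peaks. The study also treats CACGCG as a noncanonical E-box. CACGTG or CACGCG was in 2 of the 8 peaks, those of B2M and PSMB8, through CACGCG. It was in 10.3% of the 68 and in 56.9% of the N-Myc promoter peaks. In the 2 kb promoters either form was in 7 of 10 at the members, in 57.5% for JMJD6 and in 77.4% for N-Myc. The lack of CACGTG is therefore not a lack of both forms. The 10 promoters of 2 kb are not separate. Both PSMB8 promoters hold the same CACGCG, and the TAP1 and PSMB9 promoters overlap.

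The other patterns were compared in windows of 300 bases, from 250 before the centre or start to 50 after it. The interferon pair was in 3 of the 10 member promoters (30%, CI 6.67 to 65.2%), in 6.32% of the 174 JMJD6-listed promoters, in 2.40% of the N-Myc-listed promoters and in 3.48% of 20136 coding promoters. Of the interferon pairs under member peaks, only those of HLA-F and B2M fell in these windows. The match of the remaining promoter therefore lay outside its JMJD6 peak. The matches of the TAP1 and PSMB9 peak lay outside them, so these 3 promoters are not the 3 peaks counted below. The variant of the pair was also in 3 of 10, against 11.5%, 6.03% and 7.13%, of which the interval includes the first and the third. The class I pair was in 3 of 10, against 4.60%, 1.28% and 0.889%, but its form was chosen on these promoters, so these shares are no support for a difference. The kappa-B form was in 6 of 10 (CI 26.2 to 87.8%), against 35.6%, 28.2% and 27.4%, so for this short pattern the interval of the members includes all 3 other shares. TAP1 and PSMB9 were both counted through the same bases, at chr6:32821709-32821718. The interval takes the 10 promoters as independent, which these 2 are not. The member promoters are also counted among the JMJD6-listed and the coding promoters, and HLA promoters descend from common ancestors.

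**Figure D5:**
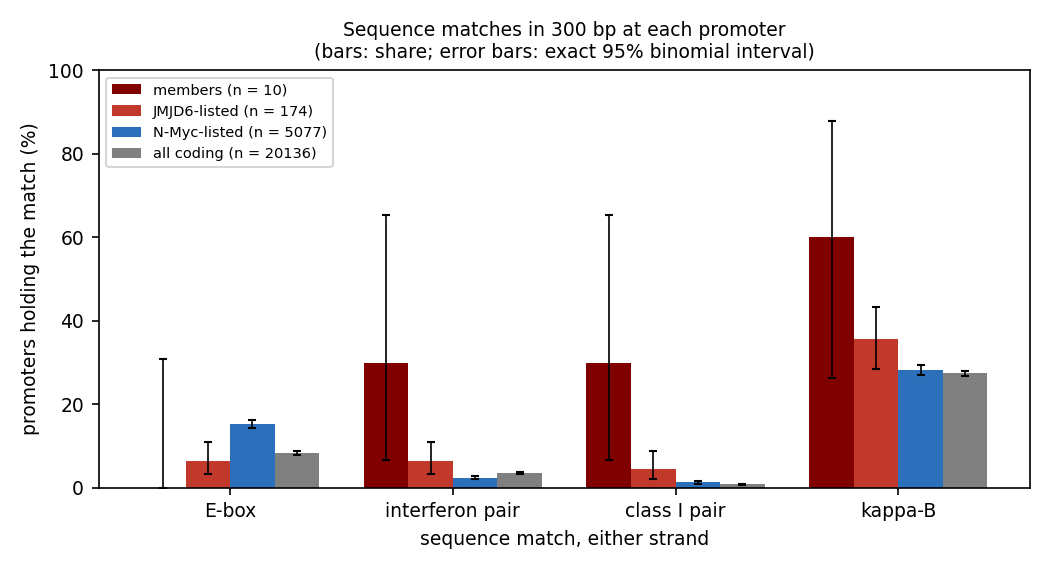
Share in % of promoters holding each sequence match within 300 bases, for the 10 member promoters (dark red), 174 JMJD6-listed promoters (red), 5077 N-Myc-listed promoters (blue) and 20136 coding promoters (grey), with exact 95% binomial intervals as error bars. The intervals of the member promoters are wide, and the E-box was in none of them.

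Over the 8 whole peaks, the interferon pair was in 3 (HLA-F, B2M and the TAP1 and PSMB9 peak), its variant in 2 others (HLA-B and HLA-C), the class I pair in 3 (HLA-B, HLA-C and B2M) and the kappa-B form in 5 (HLA-B, HLA-C, HLA-L, B2M and the TAP1 and PSMB9 peak). CGTCA followed by ATTGG, the form set first, was in 0 of the 8. Of the 68 other JMJD6 promoter peaks without N-Myc, 11.8% held the interferon pair and 11.8% the class I pair, both within the members' interval of 8.52 to 75.5%. The variant was in 25% of the 68 and in 25% of the 8, and the kappa-B form in 42.6% and in 62.5%. Of the 6 butyrophilin peaks, 3 held the interferon pair and 6 its variant, so neither form was particular to the class I presentation genes. Each pattern matches letters only and does not show that a factor was bound.

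HLA genes are near copies of each other, which can make short reads ambiguous. Every 75-mer of the 8 peaks occurred once in the GRCh37 primary assembly on either strand. Over all 561 JMJD6 peaks this held for 368 (65.6%). Alternative haplotypes are not part of this sequence, and the effect of HLA alleles of the cell line on mapping was not tested.

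Of 41 further genes of the pathway, RFX5, a DNA-binding subunit of the RFX complex at MHC promoters, and MR1, a class I-like molecule that presents vitamin metabolites, were listed at a JMJD6 promoter. RFX5 was listed for both proteins, with the same peak of 1483 bp holding 2 CACGTG matches, and MR1 for JMJD6 alone at its promoter, with a peak of 612 bp and no CACGTG. N-Myc was listed at the promoters of 10 of the 41, namely RFX5, the loading factors TAPBPL and CALR, the proteasome genes PSME2, PSME3 and PSMB6, IRF9 of the interferon response, and the NF-Y subunits NFYA, NFYB and NFYC. This count is near the 20.8% of all coding genes with an N-Myc peak at a start. A JMJD6 enhancer was assigned to RFX5 alone, an N-Myc enhancer to 14 of the 41 and an N-Myc super-enhancer to PSMB5 and RFXAP. The share of all genes assigned an enhancer was not computed, so nothing is read from these enhancer counts. Within the peptide loading and trimming group, 0 of 8 genes had a JMJD6 promoter, TAP2 and TAPBP included, and within the other proteasome genes 0 of 7, where the share over all coding genes was 0.780%. The activator NLRC5 and the regulators IRF1, IRF2 and CIITA were among the 23 genes named in no list.

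The class II and butyrophilin gene families were also listed for JMJD6 without N-Myc at promoters. Of 12 class II genes, 7, among them CD74 on chromosome 5, were listed at a JMJD6 promoter and 0 at an N-Myc promoter, and of 7 butyrophilin genes 6 and 0. The interferon-inducible guanylate binding protein genes on chromosome 1 had 0 of 7 JMJD6 promoters, with an N-Myc promoter at GBP2 and an N-Myc enhancer assigned to GBP6. For enhancers, 3 butyrophilin genes were assigned one bound by JMJD6 and 1, BTN1A1, one bound by N-Myc, as were 2 class II genes, against 0 of 10 members for each protein. With families of 7 to 12 genes these counts are descriptions, and the enhancer counts have no share over all genes to be set beside.

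Marker genes of cell types were looked up in the same lists. Of 12 noradrenergic neuroblastoma genes, 10 were named in at least 1 list, mostly beside N-Myc enhancers and super-enhancers (HAND2 and GATA3 among them). DBH and CHGB were in none. At promoters 2 of the 12, GATA2 and MYCN, were listed for N-Myc, where the share over all coding genes was 20.8%. Of 5 leukocyte genes, 1 was named, PTPRC, beside 1 N-Myc enhancer. The share of all genes named in any list was not computed, and binding does not measure expression. These counts therefore do not check the identity of the cells.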

How the data were processed

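The 6 ChIP-seq samples were grouped by the antibody in their labels. Per the labels and the study's methods, the authors aligned reads with BWA, used SAMtools and bedtools, called peaks with MACS2 version 2.1.1.20160309 at a q-value maximum of 0.05, and kept peaks found in all 3 samples. The 12 deposited lists hold positions in hg19 and no counts, scores or per-sample values. Enhancers came from H3K27ac data, with the 2 nearest genes by GREAT.

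Members and gene lists were chosen with earlier results of these data known, and so were the named genes (all members, pathway genes listed for either protein, and promoters on chromosome 6 of like listing). Some genes covered by these lists are not reported here by name. Overlap meant at least 1 bp. No test was run. Intervals on shares of sequence matches are exact (Clopper-Pearson) 95% intervals. Sequences and 75-mers came from GRCh37 and genes from GENCODE 44 lifted to it, and RefSeq (GRCh38.p14) promoters, found for 8 of 10 members, located HLA-G only. The stretches printed for HLA genes were anchored on a CCAAT box after the sequences were seen. Python 3.11.15, numpy 2.4.6, SciPy 1.17.1, pysam 0.24.0, Biopython 1.88 and matplotlib 3.10.9 were used, and procedures were tested on simulated intervals and sequences. Alternatives covered the reach of a promoter, the overlap, peak width, start sites and motif forms.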

Additional observations from a re-analysis of the deposited data

How the results depend on the processing

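Of 21 alternatives over 8 results, 16 left a count within 1.5 times its value, or the median peak position (-57.75 against -124.75 bp from annotated starts) within 1 SD of 252 bp over the promoters, and 5 moved it. The variant interferon form, in 2 peaks against 3, counted as within these limits although none of its peaks was among the 3. Allowing an N-Myc peak within 50 kb raised the member peaks with N-Myc from 0 to 1 (B2M), whereas overlap of at least 50%, reach of 1 or 10 kb, and only the 6 peaks of at least 300 bp gave 0. CACGTG or CACGCG was in 2 member peaks against 0 for CACGTG. Either interferon form was in 5 against 3. TGACG in place of CGTCA before ATTGG gave 3 against 0. The uninterrupted enhancer A form was in 1 against 5 for the kappa-B form. The reach of 50 kb, either interferon form and the TGACG form were chosen after seeing the data. Except for TGACG, which is another sequence and not a wider one, these differences follow from wider or narrower definitions. JMJD6 stayed at 9 members and N-Myc at 0 with annotated starts, noncoding ones included for the pseudogene HLA-L, reached within 500 bp, 1 kb or 5 kb. No paired analysis was possible because the lists have no column per sample, and for the same reason no sample was left out. The lists hold no peak height or depth, so width stood in for a stricter threshold.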
